A study of Homo sapiens with 11 samples.

Results

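PC3 and DU145, 2 human prostate cancer cell lines widely used as models of metastatic disease, were compared with each other in their control state. PC3 was established from a bone metastasis and DU145 from a brain metastasis. The comparison used the control libraries of an RNA-Seq study of the sialyltransferase ST6GAL1, 3 from PC3 and 3 from DU145, out of 11 libraries in all. Both control lines had been stably transduced with negative-control lentiviral particles, and the remaining 5 libraries, 3 of PC3 and 2 of DU145, carried stable lentiviral overexpression of ST6GAL1 in place of the control. The 3 libraries of a group were biological repeats of 1 transduced line, so the spread within a group is that between cultures and not between tumours. The counts of each line were deposited as a table of its own, and line and library batch cannot be told apart. The tables of both lines were joined by gene and normalised together, and levels are given as normalised CPM (the count of a gene scaled to a fixed library total), as mean ± SD with n = 3 libraries for each line.

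Cell lines taken from the same type of cancer share an origin but carry different mutations, deletions and gene copy numbers, and they hold different genes in a silenced state. Both lines grow without androgen. Cadherins and catenins join epithelial cells to one another, integrins and matrix proteins join them to their surroundings, and sialyltransferases cap the sugar chains of surface and secreted proteins with sialic acid. Prostate cancer cells that reach bone are known to secrete factors that act on the cells that build bone (osteoblasts) and on those that resorb it (osteoclasts).

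The PC3 libraries held 15255634 to 17758666 counts and the DU145 libraries 13194485 to 15795095. A count of 3 in a single library corresponded to 0.169 to 0.227 CPM. Mitochondrially encoded genes took 4.41% to 4.59% of the counts in PC3 and 2.55% to 3.16% in DU145, and the part of this difference in the results below was not tested. The biological coefficient of variation was 0.0277 within PC3 and 0.0523 within DU145.

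Most genes differed between the lines. Of 14246 genes tested, 12572 (88.2%) had an adjusted p under 0.05, and 9205 (64.6%) also exceeded 0.58 in log2 fold change in either direction. PC3 was the higher line for 4673 of them (32.8% of genes tested) and DU145 for 4532 (31.8%). With an absolute log2 fold change over 2, 1609 genes (11.3%) were higher in PC3 and 1451 (10.2%) in DU145. The 3 PC3 values did not overlap the 3 DU145 values for 88.6% of genes tested. These shares are the background for every gene group that follows, since a group with such shares of its members higher in each line is like the rest of the genes. The same lines were also compared in their ST6GAL1 overexpression libraries, which share no library with the controls. There 9570 of 14533 genes (65.9%) were called. Of the 9054 genes called in the controls that could be tested there, 8945 (98.8%) had the same sign and 8141 (89.9%) were called the same way, which is 85.1% of the calls in the overexpression libraries. Both sets are of the same lines and share the table deposited for each line, so this overlap cannot tell line from library batch.

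Some genes were read in 1 line and not in the other. Taking at most 3 counts summed over the 3 libraries of a line as unread, and a mean of at least 10 CPM as read, 134 genes were read in PC3 only and 101 in DU145 only. The unread line had no count at all for 91 and 59 of them. Of the 134, 130 also had at most 3 counts in the DU145 overexpression libraries, and of the 101, 82 had at most 3 in those of PC3. For a gene without a count, the fold is a lower bound set against 3 counts over the group, which is 0.0616 CPM in PC3 and 0.0680 CPM in DU145. For named genes with 1 to 20 counts in the low line, the ratio of the summed counts scaled to library size is given with its 95% counting interval in place of the fitted fold. Intervals and bounds cover counting error only. Just outside the limit, with 4 counts in the low line, stood 6 genes high in PC3, led by HOXB13, and 7 high in DU145, led by ADGRG2 (0.0874 ± 0.151 against 80.7 ± 3.86 CPM).

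**Figure D1:**
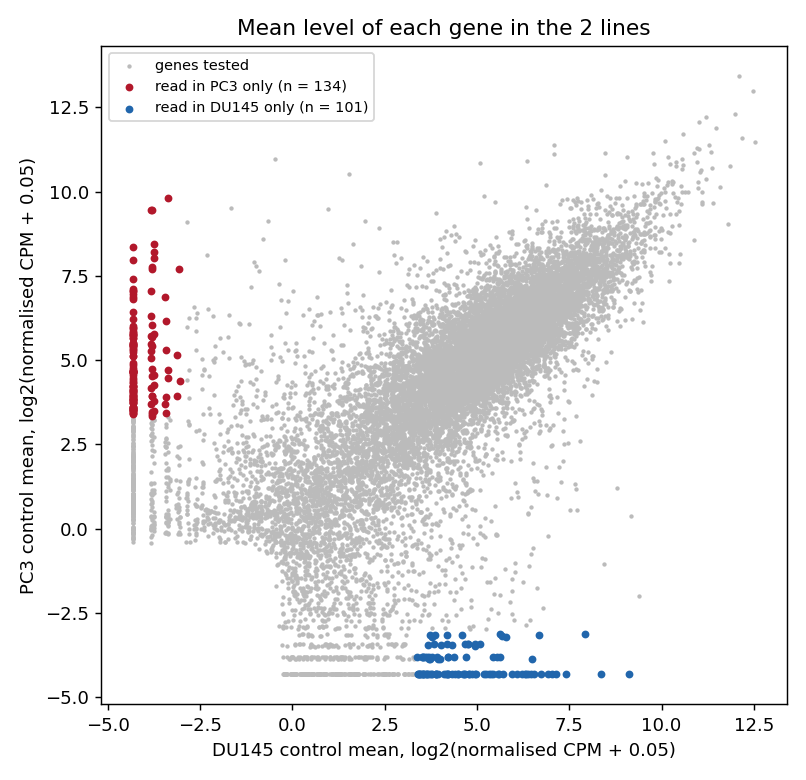
Mean level of each tested gene in the DU145 controls (x axis) and the PC3 controls (y axis), both as log2(normalised CPM + 0.05). The 134 genes read in PC3 only lie along the left edge and the 101 read in DU145 only along the lower edge, away from the diagonal of genes read in both lines.

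The highest of the genes read in PC3 only was SULF2, which removes sulphate from heparan sulphate chains, at 905 ± 16.1 against 0.0464 ± 0.0406 CPM (ratio 19952, 95% counting interval 5523 to 164758). Next came the mesenchymal cadherin CDH11 (703 ± 19.7 against 0.0222 ± 0.0384 CPM) and FBN2, a protein of elastic microfibrils (695 ± 14.8 against 0.0213 ± 0.0369 CPM). CDH2, or N-cadherin, was read at 337, 312 and 328 CPM in the PC3 libraries and 0, 0 and 0 CPM in the DU145 libraries, at least 4785-fold higher in PC3. All PC3 libraries were high and no DU145 library held a CDH2 read. ADGRF1, an adhesion G protein-coupled receptor, was at least 3676-fold higher (250.1 ± 16.9 CPM against no count), and AGR2, a protein disulphide isomerase of secretory cells, at least 2492-fold higher (169.6 ± 13.8 CPM against no count). The activin subunits INHBA and INHBB were both without a count in DU145, with 138 ± 5.6 CPM against no count for INHBA and 134 ± 4.32 CPM against no count for INHBB. INHBA overlaps the antisense gene INHBA-AS1, and reads of the pair cannot be separated here. Other genes without a count in DU145 were UBE2QL1 (at least 1938-fold higher), TSPYL5 (at least 1829-fold), TRIM58 (at least 1712-fold) and SIDT1 (at least 1641-fold).

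The highest of the genes read in DU145 only was CAVIN1, a coat protein of caveolae. Its level was 0, 0 and 0 CPM in the PC3 libraries and 550.4, 559.6 and 554 CPM in the DU145 libraries, at least 9011-fold higher in DU145. STAT3, the transcription factor downstream of the gp130 cytokine receptors, had 0, 0 and 0 CPM in the PC3 libraries and 333, 317 and 339 CPM in the DU145 libraries. This put STAT3 at least 5357-fold higher in DU145, with no read in any PC3 library. HEXA, a subunit of the lysosomal enzyme beta-hexosaminidase, was at least 2789-fold higher (no count against 172 ± 4.67 CPM). IGFBPL1 (at least 2301-fold higher), PARP6 (at least 2110.0-fold), PRXL2A (at least 1348-fold) and NKX2-1, a transcription factor of lung and thyroid (at least 1430.0-fold), were also without a count in PC3. LMO3 had 3 counts in PC3 and 0.0642 ± 0.0636 against 243 ± 7.36 CPM (ratio 3933, 95% counting interval 1345 to 19074). MT1E, a metallothionein, and RPL31P11, a ribosomal protein pseudogene, were at 0 in PC3 as well (no count against 92.9 ± 3.94 CPM and no count against 106 ± 3.99 CPM), but reads of such near-identical genes can be assigned to a relative, so both are uncertain.

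Part of the genes unread in PC3 lay side by side. Counting only genes that averaged 1 CPM or more in PC3 or DU145, 8 neighbours on chromosome 17 had no count in any PC3 control library or in any PC3 overexpression library. They span positions 42101411 to 42423256 of chromosome 17 in GRCh38, which is 322 kb, and in gene order are DHX58, KAT2A, RAB5C, GHDC, STAT5B, STAT5A, STAT3 and CAVIN1. The values were no count against 79.7 ± 5.59 CPM in PC3 and DU145 for the histone acetyltransferase KAT2A, no count against 121 ± 6.21 CPM for the endosomal GTPase RAB5C and no count against 79.4 ± 2.79 CPM for STAT5B. On one side the next gene, ZNF385C, was read in both lines (2.56 ± 1.13 against 11.4 ± 1.35 CPM). On the other side ATP6V0A1, a subunit of the vacuolar proton pump, was nearly unread in PC3 (0.124 ± 0.0673 against 61.9 ± 2.47 CPM), and beyond it NAGLU was read in both (13.2 ± 0.245 against 40.3 ± 2.16 CPM). On chromosome 15, PARP6 and HEXA (72241181 to 72376014) had no PC3 count between PKM (3110.0 ± 92.4 against 4658 ± 226 CPM) and ARIH1 (85 ± 4.75 against 131 ± 3.83 CPM). On chromosome 10, PRXL2A, TSPAN14 and TSPAN14-AS1 (80407829 to 80535942) had none between LINC00857 (44 ± 2.7 against 27 ± 3.26 CPM) and GHITM (194 ± 4.83 against 407 ± 24.8 CPM). In all, at this lower limit of 1 CPM, there were 40 runs of at least 2 neighbours unread in PC3 and 64 unread in DU145. Only 6 of the 40 and 14 of the 64 held at least 2 genes with a mean of 10 CPM or more in the other line. In the run of 8 on chromosome 17, 6 genes reached 10 CPM in DU145. Some runs were a gene with its antisense gene, such as WT1 and WT1-AS. The longest run in DU145 held 4 genes.

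**Figure D2:**
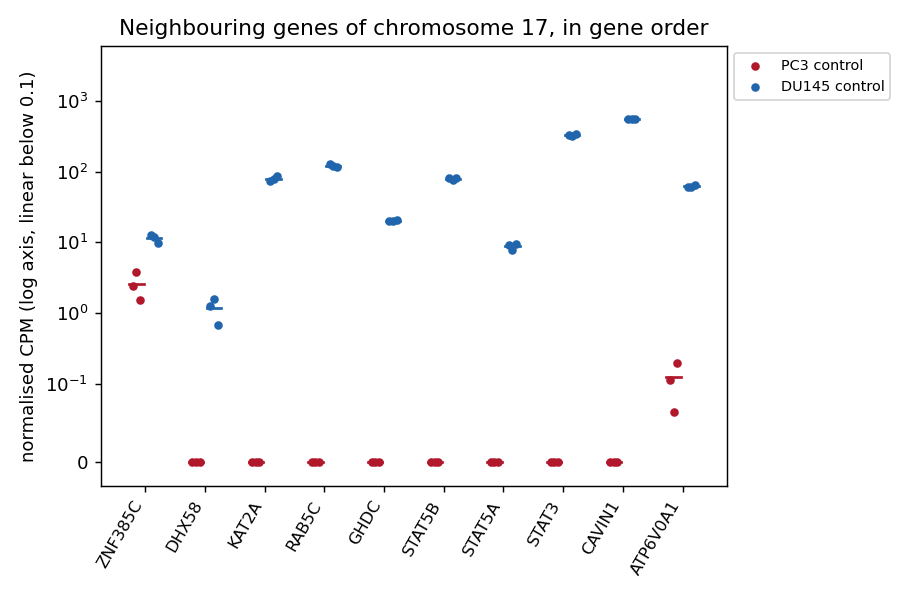
Normalised CPM on a log axis (linear below 0.1) for each control library (points, with the mean as a line) of the neighbouring chromosome 17 genes, in gene order. All PC3 points of the 8 genes from DHX58 to CAVIN1 lie at 0, while ZNF385C before them is read in both lines and ATP6V0A1 after them is at 0.124 CPM in PC3.

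The genes unread in DU145 included neighbours that share a function. MUC5AC (18.8 ± 0.642 CPM against no count) and MUC5B (26 ± 2.85 CPM against no count) are gel-forming mucins that lie together on chromosome 11. TFF1, a trefoil peptide secreted with mucins, stood in a run with TFF2 and TFF3 on chromosome 21 (15.3 ± 0.894 against 0.0222 ± 0.0384 CPM for TFF1). PRAC1 and PRAC2, which lie beside HOXB13 on chromosome 17 and are known from prostate and colon, formed another run (50.8 ± 3.63 CPM against no count for PRAC1).

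The start sites of 4 of these genes, chosen after their values were seen, are shown to set the activin subunits INHBA and INHBB, read in the same line, beside CDH2 and STAT3, read in opposite lines. CG dinucleotides are the sites of most DNA methylation in human cells. CDH11, CAVIN1 and HEXA are not shown. Each is the RefSeq promoter window of GRCh38.p14, from 250 bases before to 50 bases after the start, read 5′ to 3′ on the strand of the gene, with every CG in capitals. CDH2 lies at chr18:28177081-28177380 (minus strand), INHBA at chr7:41703041-41703340 (minus strand), INHBB at chr2:120345886-120346185 (plus strand) and STAT3 at chr17:42388393-42388692 (minus strand).
CDH2: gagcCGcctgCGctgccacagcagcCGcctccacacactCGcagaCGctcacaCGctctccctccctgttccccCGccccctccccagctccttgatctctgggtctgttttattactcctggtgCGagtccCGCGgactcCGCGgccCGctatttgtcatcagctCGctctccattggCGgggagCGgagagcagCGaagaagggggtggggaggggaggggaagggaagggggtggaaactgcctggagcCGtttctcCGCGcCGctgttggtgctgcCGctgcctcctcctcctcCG
INHBA: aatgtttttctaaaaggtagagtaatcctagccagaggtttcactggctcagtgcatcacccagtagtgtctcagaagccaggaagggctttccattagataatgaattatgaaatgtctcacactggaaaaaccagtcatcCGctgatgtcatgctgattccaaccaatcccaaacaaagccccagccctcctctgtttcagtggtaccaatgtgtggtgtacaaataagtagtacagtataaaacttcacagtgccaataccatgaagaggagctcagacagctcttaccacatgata
INHBB: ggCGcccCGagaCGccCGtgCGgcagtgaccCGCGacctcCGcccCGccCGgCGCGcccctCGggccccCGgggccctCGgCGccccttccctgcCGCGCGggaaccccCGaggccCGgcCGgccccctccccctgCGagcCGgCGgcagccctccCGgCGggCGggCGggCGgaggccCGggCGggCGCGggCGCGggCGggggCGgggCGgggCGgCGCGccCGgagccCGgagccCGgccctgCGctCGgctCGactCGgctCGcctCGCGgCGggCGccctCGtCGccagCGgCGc
STAT3: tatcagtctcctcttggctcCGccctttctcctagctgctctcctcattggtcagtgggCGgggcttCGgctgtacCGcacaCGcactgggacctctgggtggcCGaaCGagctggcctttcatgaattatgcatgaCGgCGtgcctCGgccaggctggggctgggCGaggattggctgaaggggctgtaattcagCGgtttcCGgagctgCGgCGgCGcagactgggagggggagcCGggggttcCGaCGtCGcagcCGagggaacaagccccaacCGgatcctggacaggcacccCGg
The windows of CDH2, INHBB and STAT3 lie at the outer 5′ end of the annotated gene, whereas that of INHBA lies at a start 2316 bases inside it, so the INHBA and INHBB windows are not like for like. The INHBB window held 58 CG and the INHBA window 1. CDH2 and STAT3, which were read in opposite lines, held 23 each. Of all 27305 promoter windows in the table, 0.176% held at least as many CG as INHBB, 35.6% at least as many as CDH2 or STAT3, and 95.8% at least 1. A promoter window was matched for 100 of the 134 genes read in PC3 only (74.6%) and 80 of the 101 read in DU145 only (79.2%), so a comparison of CG content over these sets is void. DNA methylation was not measured.

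The lines were then checked against a gene PC3 is known for. CTNNA1, the alpha-catenin that ties cadherins to actin and is known to be lost in PC3, was read at 1.01, 1.59 and 1.18 CPM in the PC3 libraries and 578, 572 and 566 CPM in the DU145 libraries, 455-fold higher in DU145 (log2 fold change -8.83 ± 0.09 SE, adjusted p = 1.28e-32). In the mismatch repair list 1 of 9 tested members were higher in PC3 and 2 in DU145.

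Of the tumour suppressors, 6 of 31 tested members were higher in PC3 and 17 in DU145, with a median log2 fold change (PC3 minus DU145) of -0.67 against -0.0032 over all genes tested. Besides CTNNA1, the DNA repair gene BRCA1 (39.9 ± 2.03 against 167 ± 6.66 CPM), the RAS inhibitor NF1 (88.6 ± 2.47 against 336 ± 27 CPM) and the retinoblastoma gene RB1 (46.9 ± 2.19 against 100.3 ± 2.75 CPM) were higher in DU145. KEAP1, which marks NRF2 for degradation, was 3.98-fold higher in PC3 (120.1 ± 2.59 against 30.3 ± 4.29 CPM). These are RNA levels, and whether the RB1 or other proteins are intact or active in either line was not tested.

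Genes of epithelial identity were mostly higher in DU145. Of this list 2 of 17 tested members were higher in PC3 and 14 in DU145, with a median log2 fold change of -1.42. E-cadherin, CDH1, was 11.1-fold higher in DU145 (8.87, 9.03 and 9.7 CPM in the PC3 libraries and 97.9, 102 and 106 CPM in the DU145 libraries). P-cadherin, CDH3, was 36.2-fold higher (6.04 ± 0.552 against 219.9 ± 8.68 CPM), the tight junction protein CLDN7 15.3-fold higher (1.25 ± 0.117 against 19.3 ± 0.184 CPM) and the lipolysis-stimulated receptor LSR 12.4-fold higher (8.4 ± 0.46 against 104 ± 6.76 CPM). The exceptions were the tight junction protein CLDN4 (143 ± 1.72 against 8.85 ± 0.327 CPM) and the splicing regulator ESRP2 (90.8 ± 2.53 against 28 ± 0.945 CPM), which were higher in PC3. Of the keratins 4 of 11 tested members were higher in PC3 and 5 in DU145. The hair-type keratin KRT81 was 371-fold higher in PC3 (712 ± 11.8 against 1.91 ± 0.162 CPM), while KRT7 (267 ± 11.5 against 708 ± 22.4 CPM) and KRT8 (299.5 ± 7.19 against 567 ± 17.5 CPM) were higher in DU145 and KRT19 was not called (360.3 ± 11.8 against 254 ± 4.16 CPM). Hair keratins are close paralogs, so the split of reads between KRT81 and KRT86 (6.31 ± 0.499 against 0.504 ± 0.174 CPM) is uncertain.

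Cell junction genes as a whole were near the background, as 11 of 35 tested members were higher in PC3 and 14 in DU145. The desmosomal plaque proteins went in opposite directions. PKP1 was 145-fold higher in PC3 (557 ± 6.26 against 3.85 ± 0.536 CPM), and DSP, or desmoplakin, was 11.6-fold higher in DU145. DSP was read at 32.6, 28.5 and 31.9 CPM in the PC3 libraries and 359.5, 336 and 389 CPM in the DU145 libraries (log2 fold change -3.54 ± 0.06 SE, adjusted p = 7.74e-27). In the overexpression libraries its difference had the opposite sign (log2 fold change 1.43). The desmosomal cadherin DSG2 was 4.25-fold higher in DU145 (132 ± 3.97 against 562 ± 8.61 CPM). Of the mesenchymal genes 11 of 27 tested members were higher in PC3 and 8 in DU145. The transcription factors TWIST1 and TCF4 were read in PC3 only (at least 173-fold and at least 373-fold higher). Vimentin, VIM, was not called (1195 ± 17.9 against 1239.9 ± 67.6 CPM), and the receptor tyrosine kinase AXL was 2.19-fold higher in DU145 (417 ± 6.58 against 913 ± 33.2 CPM).

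**Figure D3:**
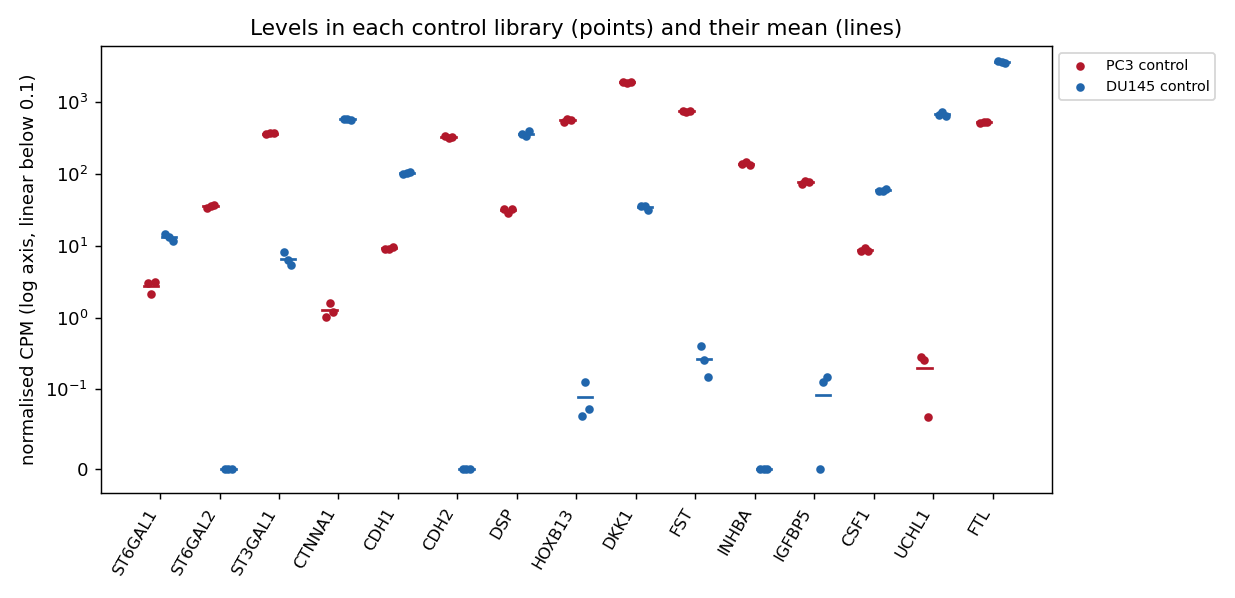
Normalised CPM on a log axis (linear below 0.1) of 15 genes named in the text, with a point for each control library and a line at the mean of 3. For every gene plotted the PC3 points and the DU145 points do not overlap, as for 88.6% of all genes tested. The 15 were picked from genes named as different, so their separation is no result about genes in general.

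Extracellular matrix genes were mostly higher in PC3. Of this list 33 of 50 tested members were higher in PC3 and 13 in DU145, with a median log2 fold change of 2.09. The chains of collagen VI differed together, with COL6A1 19.6-fold higher (2577, 2768 and 2602 CPM in the PC3 libraries and 127, 131 and 148 CPM in the DU145 libraries), COL6A2 23.6-fold higher (1934 ± 48.6 against 82 ± 6.34 CPM) and COL6A3 read in PC3 only (297 ± 6.76 against 0.0251 ± 0.0435 CPM). LAMA4, a laminin chain of vessel walls, and COL4A6 had no DU145 count (at least 858-fold and at least 325-fold higher in PC3). In the other direction, the basement membrane collagen COL4A4 was read in DU145 only (0.0424 ± 0.0734 against 27.1 ± 2.75 CPM).

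Among proteases and their inhibitors 19 of 34 tested members were higher in PC3 and 12 in DU145. Tissue plasminogen activator, PLAT, was 517-fold higher in PC3 (1475 ± 22.2 against 2.85 ± 0.224 CPM), and urokinase, PLAU, 3.24-fold higher (1063 ± 5.85 against 328 ± 9.86 CPM). The serpin family genes SERPINB7 (252 ± 12.7 against 0.818 ± 0.0814 CPM) and SERPINB5 (263 ± 11 against 2.37 ± 1.06 CPM) were also higher in PC3. So were the metalloproteinases ADAMTS1 (54.2 ± 4.36 CPM against no count) and MMP16 (78.6 ± 2.72 against 0.0213 ± 0.0369 CPM). Integrins were split evenly, as 8 of 19 tested members were higher in PC3 and 8 in DU145. ITGB8 (ratio 73.6, interval 47 to 123), ITGB4 (5.3-fold higher) and ITGA6 (3.85-fold), the last 2 of which pair in hemidesmosomes, were higher in PC3, while ITGB1, the common beta subunit, was 1.78-fold higher in DU145 (1317 ± 13.9 against 2349 ± 130.3 CPM) and ITGB2 4.63-fold higher (14.3 ± 0.713 against 66.4 ± 1.51 CPM).

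The sialyltransferases bear on the question of the study, in which ST6GAL1 was raised in both lines. Control levels of ST6GAL1, which adds alpha2-6 linked sialic acid to N-glycans, were 2.98, 2.1 and 3.08 CPM in the PC3 libraries and 14.4, 13.1 and 11.5 CPM in the DU145 libraries. ST6GAL1 was 4.77-fold higher in DU145 (log2 fold change -2.26 ± 0.14 SE, adjusted p = 1.70e-14), with no overlap between the lines. Its closest relative ST6GAL2 was read in PC3 only (35.1 ± 1.29 CPM against no count, at least 517-fold higher). ST3GAL1, which adds alpha2-3 linked sialic acid to O-glycans, was 54.6-fold higher in PC3 (353, 369 and 366 CPM in the PC3 libraries and 8.05, 6.38 and 5.35 CPM in the DU145 libraries), and ST3GAL4 (139 ± 12.3 against 31.6 ± 3.34 CPM) and ST3GAL6 (24.2 ± 0.898 against 3.02 ± 0.512 CPM) were higher in PC3 as well. Over the family 5 of 14 tested members were higher in PC3 and 4 in DU145. An absolute log2 fold change over 2 was found for 4 members higher in PC3 and 3 higher in DU145, ST6GAL1 among the 3. Among genes that supply or remove sialic acid 1 of 10 tested members were higher in PC3 and 1 in DU145, these being NANP (50.4 ± 0.0734 against 23.9 ± 1.51 CPM) and NPL (1.24 ± 0.141 against 12.2 ± 0.616 CPM). GNE, which starts sialic acid synthesis, was not called (56.5 ± 2.13 against 60.5 ± 3.23 CPM).

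Of the enzymes of N- and O-glycan assembly 14 of 43 tested members were higher in PC3 and 20 in DU145. GALNT14 (0.0593 ± 0.0564 against 51.3 ± 3.77 CPM), which starts O-glycans, and GCNT3 (0.31 ± 0.136 against 45 ± 3.51 CPM) and GCNT1 (1.44 ± 0.0797 against 16.9 ± 0.737 CPM), which branch them, were higher in DU145, as was the galactosyltransferase B4GALT1 (64 ± 2.06 against 363 ± 7.94 CPM). Among mucins and other carriers 11 of 20 tested members were higher in PC3 and 6 in DU145. Unlike MUC5AC and MUC5B, the membrane mucin MUC16 was read in DU145 only (0.0187 ± 0.0324 against 12.9 ± 3.57 CPM), and MUC1 was higher in DU145 (7.26 ± 0.415 against 26.5 ± 2.62 CPM). The complement inhibitors CD55 (453 ± 3.28 against 62 ± 0.778 CPM) and CD59 (737 ± 11.1 against 182 ± 13.7 CPM) were higher in PC3.

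Factors that act on bone were mostly higher in PC3. Of this list 18 of 25 tested members were higher in PC3 and 4 in DU145, with a median log2 fold change of 2.84. DKK1, a Wnt inhibitor that restrains osteoblasts, was read at 1862, 1821 and 1899.6 CPM in the PC3 libraries and 35.1, 35.6 and 31.7 CPM in the DU145 libraries, 54.4-fold higher in PC3 (log2 fold change 5.77 ± 0.06 SE, adjusted p = 1.21e-31). The activin antagonist FST was higher (738 ± 13.5 against 0.268 ± 0.125 CPM, ratio 2715, interval 1554 to 5256), in the line in which INHBA was read. The BMP antagonist NOG (71.9 ± 2.81 against 0.0435 ± 0.0377 CPM), the Notch ligand JAG1 (348 ± 6.84 against 3.06 ± 0.518 CPM) and the cytokine IL1B (56.4 ± 10.6 CPM against no count) were also higher in PC3. IGFBP5, an IGF binding protein, was read at 72.4, 80.5 and 76.4 CPM in the PC3 libraries and 0, 0.128 and 0.151 CPM in the DU145 libraries (ratio 842, interval 328 to 3091, adjusted p = 1.12e-26). CSF1, which osteoclast precursors need, went the other way, at 8.42, 9.41 and 8.39 CPM in the PC3 libraries and 58.4, 58.2 and 62.3 CPM in the DU145 libraries, and was 6.81-fold higher in DU145 (log2 fold change -2.77 ± 0.08 SE, adjusted p = 1.12e-22). VEGFA was 4.31-fold higher in DU145 (42.7 ± 2.26 against 184 ± 6.92 CPM).

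Among chemokines and cytokines 12 of 27 tested members were higher in PC3 and 10 in DU145. The neutrophil chemokines CXCL1 (81.1 ± 4.62 against 1.19 ± 0.373 CPM), CXCL6 (53.6 ± 2.61 against 0.626 ± 0.235 CPM) and CXCL8 (118 ± 4.25 against 1.55 ± 0.425 CPM) were higher in PC3, and the receptors OSMR (69.9 ± 1.4 against 729 ± 16.2 CPM) and IL1R1 (2.51 ± 0.429 against 25.5 ± 0.553 CPM) in DU145. OSMR and IL6ST (139 ± 3.36 against 223 ± 7.77 CPM) pass their signal through STAT3, which was unread in PC3. In the TGF-beta, BMP and ID list 15 of 34 tested members were higher in PC3 and 11 in DU145. ID2, an inhibitor of DNA-binding helix-loop-helix factors, was 3.47-fold higher in PC3 (41.8, 40.5 and 42.8 CPM in the PC3 libraries and 11.6, 12.3 and 12.2 CPM in the DU145 libraries, log2 fold change 1.79 ± 0.08 SE, adjusted p = 1.62e-18), whereas its relative ID3 was 9.21-fold higher in DU145 (7.33 ± 1.26 against 67.3 ± 4.92 CPM). In the IGF system 8 of 14 tested members were higher in PC3 and 5 in DU145, with IGFBP4 16.5-fold higher in PC3 (2227 ± 98 against 135 ± 7.21 CPM) and IGFBP2 higher in DU145 (0.302 ± 0.0991 against 21 ± 2.14 CPM, ratio 67.9, interval 41 to 122).

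In the ERBB and ERK list 13 of 23 tested members were higher in PC3 and 7 in DU145, with a median log2 fold change of 0.94. The feedback inhibitors of ERK signalling SPRY4 (99.7-fold higher, 250.4 ± 5.33 against 2.51 ± 0.25 CPM), DUSP4 (44-fold, 657 ± 12.5 against 14.9 ± 0.775 CPM) and DUSP6 (21-fold, 134 ± 2.2 against 6.38 ± 0.425 CPM) were higher in PC3. EREG, an EGF receptor ligand, was 57.8-fold higher in DU145 (1.51 ± 0.231 against 88.1 ± 6.19 CPM), and EGFR itself was not called (101 ± 4.43 against 138 ± 13.8 CPM). EGR1, an immediate early gene of this pathway that was in no list, was read in DU145 only (0.0586 ± 0.0563 against 55 ± 8.4 CPM). Of the Notch and Wnt genes 17 of 37 tested members were higher in PC3 and 13 in DU145. LGR5 and WNT7A were read in PC3 only (at least 512-fold and at least 443-fold higher), FZD8 was 397-fold higher in PC3, and the Wnt antagonist SFRP1 was higher in DU145 (0.23 ± 0.138 against 61.9 ± 1.37 CPM, ratio 273, interval 152 to 548). Of the stem cell regulators 14 of 19 tested members were higher in PC3 and 5 in DU145. SOX9 (223 ± 8.08 against 3.56 ± 0.792 CPM), ALDH1A3 (1185 ± 65 against 118 ± 1.34 CPM) and MYC (303 ± 8.62 against 48.9 ± 1.12 CPM) were higher in PC3 and CD24 (20.8 ± 1.11 against 286 ± 6.03 CPM) in DU145.

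Targets of NRF2, the antioxidant transcription factor that KEAP1 restrains, were mostly higher in DU145. Of this list 4 of 36 tested members were higher in PC3 and 20 in DU145, with a median log2 fold change of -0.95. The list also holds the NRF2 gene itself (NFE2L2) and KEAP1, which were not listed as targets, and KEAP1 is among the 4 higher in PC3. The aldose reductase AKR1B1 was 132-fold higher in DU145 (1.42 ± 0.505 against 185 ± 10.4 CPM), glutathione reductase GSR 7.88-fold higher (74.2 ± 3.52 against 585 ± 22.6 CPM) and ferritin light chain FTL 6.86-fold higher (521 ± 7.14 against 3573 ± 114 CPM). Both ferritin genes have many processed pseudogenes, so their levels depend on how shared reads were assigned. Ferritin heavy chain FTH1 (4279 ± 201 against 2058 ± 99.1 CPM) and ALDH3A1 (89.1 ± 13.6 against 3.63 ± 0.253 CPM) were higher in PC3. Of the cell cycle genes 5 of 40 tested members were higher in PC3 and 19 in DU145. TOP2A (379.9 ± 20.3 against 1875 ± 89.2 CPM) and MKI67 (284 ± 10.1 against 1189 ± 112 CPM), which mark dividing cells, were higher in DU145, while CCND1 (869 ± 21.5 against 158 ± 9.5 CPM) and CDK6 (85.3 ± 1.78 against 10.9 ± 0.152 CPM), which act together in early G1, were higher in PC3. In the cholesterol synthesis list 3 of 27 tested members were higher in PC3 and 11 in DU145, with FDFT1 7.23-fold higher in DU145 (64.4 ± 1.77 against 465 ± 28 CPM). In the hypoxia and glycolysis list 7 of 33 tested members were higher in PC3 and 13 in DU145, with the hexokinase HK2 higher in PC3 (199.8 ± 1.58 against 23.6 ± 0.739 CPM).

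Of 16 genes often used as references 2 of 16 tested members were higher in PC3 and 8 in DU145, with a median log2 fold change of -0.56. GAPDH was 2.11-fold higher in DU145 (2738, 2872 and 2853 CPM in the PC3 libraries and 6114, 6174 and 5579 CPM in the DU145 libraries), and ACTB was not called (3768 ± 81.8 against 2848 ± 114 CPM). Of the galectins and annexins 4 of 14 tested members were higher in PC3 and 4 in DU145, of the S100 proteins 5 of 11 tested members were higher in PC3 and 4 in DU145, and of the histones 1 of 11 tested members were higher in PC3 and 5 in DU145. Of the mitochondrially encoded genes 7 of 13 tested members were higher in PC3 and 0 in DU145, with a median log2 fold change of 0.64.

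Interferon-stimulated genes were split, as 16 of 41 tested members were higher in PC3 and 13 in DU145. IFI44L (7.08 ± 0.156 against 0.0222 ± 0.0384 CPM) and ISG15 (57.2 ± 2.2 against 9.86 ± 1.68 CPM) were higher in PC3, and OASL (0.815 ± 0.138 against 16.1 ± 3.3 CPM) in DU145. Antigen presentation could be read only in part. Of 167 protein-coding genes of the region around the major histocompatibility complex (chromosome 6, 29000000 to 34000000), 106 (63.5%) were listed at 0 in all 6 libraries, against 16.4% of protein-coding genes overall. TAP1 and PSMB9 were among those listed at 0, so no level is given for this region. Of the antigen presentation list 4 of 10 tested members were higher in PC3 and 6 in DU145. The other 12 of its 22 members were not tested, and some of those tested lie in this region, so the count is only partial. Outside the region, B2M was 1.95-fold higher in DU145 (36.9 ± 4.76 against 72 ± 6.1 CPM). Of the death receptor genes 6 of 22 tested members were higher in PC3 and 8 in DU145. The decoy receptor TNFRSF10D was higher in DU145 (0.103 ± 0.0986 against 87.4 ± 3.87 CPM, ratio 851, interval 364 to 2621), and TNFRSF10B, which signals for death, was not called (137 ± 1.8 against 161 ± 5.64 CPM).

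Genes of the prostate lineage differed in both directions, more of them higher in PC3. Of the prostate and androgen list 10 of 17 tested members were higher in PC3 and 3 in DU145, with a median log2 fold change of 1.22. HOXB13, the homeobox factor of prostate, was read at 527, 574 and 561 CPM in the PC3 libraries and 0.0665, 0.128 and 0.0754 CPM in the DU145 libraries, with 4 counts in all in DU145 (ratio 6099, interval 2382 to 22387, adjusted p = 1.28e-32). The prostate transcription factor SPDEF was 52.7-fold higher in PC3 (80.9 ± 4.14 against 1.54 ± 0.397 CPM), and FKBP5, a co-chaperone of steroid receptors, was higher in DU145 (30.1 ± 1.44 against 259 ± 7.09 CPM). Among HOX genes 13 of 32 tested members were higher in PC3 and 11 in DU145. Those higher in DU145 included HOXC10 (1.46 ± 0.361 against 29.4 ± 0.502 CPM), HOXC9 (0.663 ± 0.262 against 8.28 ± 0.494 CPM) and HOXB7 (0.998 ± 0.314 against 26.9 ± 0.209 CPM). Of 16 neuroendocrine markers 4 were tested, 1 higher in each line. UCHL1, a ubiquitin hydrolase of neurons, was higher in DU145 (0.281, 0.254 and 0.0655 CPM in the PC3 libraries and 648, 714 and 642 CPM in the DU145 libraries, ratio 3255, interval 1769.7 to 6788), and FOXA2 was higher in PC3 (80.4 ± 1.3 against 0.253 ± 0.0562 CPM, ratio 323, interval 180.3 to 647). Of 40 cancer-testis genes 4 were tested, 1 higher in PC3 and 3 in DU145. The germ cell genes BRDT and DDX43 were read in DU145 only (at least 845-fold and at least 474-fold higher). Of 20 markers of other cell types 6 were tested, 4 higher in PC3 and 2 in DU145, and their summed level over all 20 was 64.3 to 67.5 CPM in PC3 and 64.0 to 68.4 CPM in DU145. The T cell gene CD3E, the erythroid gene HBB and the melanocyte gene MLANA had no count in any of the 6 libraries. The tested markers included the endothelial genes KDR (7.48 ± 0.681 against 0.113 ± 0.0753 CPM) and PECAM1 (6.51 ± 0.438 against 0.366 ± 0.144 CPM), both higher in PC3 at low levels.

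The balance between the lines varied by chromosome. The median log2 fold change was lowest on chromosomes 9 (-0.72), 12 (-0.61) and 10 (-0.43) and, among nuclear chromosomes, highest on X (0.67), 20 (0.57) and 19 (0.52), against -0.0032 over all genes tested. On chromosome 9, 330 of 603 tested genes (54.7%) were higher in DU145 and 105 (17.4%) in PC3. On X, 257 of 485 (53%) were higher in PC3 and 70 (14.4%) in DU145. After a trend with GC content and transcript length was removed the median of chromosome 19 was 0.0045, while that of X was 0.66 and that of chromosome 9 -0.86. Windows in both directions were found on several chromosomes, among them 1, 10, 16, 17 and 19, and the lowest and the highest window median of all lay on chromosome 8. A window of 51 tested genes near its start (6808517 to 22110482) had a median of -1.68, with 45 of 51 genes lower in PC3, and in the overexpression libraries -1.11. A window at its other end (143309324 to 144853556) had a median of 2.34, with 49 of 51 genes higher in PC3, and 2.27 in the overexpression libraries. MYC, on the same arm as the second window, was 6.19-fold higher in PC3. A window of chromosome 9 (69035752 to 88077900) had a median of -1.54 and -1.55 in the overexpression libraries. The GC and length trend was not removed from any window, so its part in the window medians was not tested. Copy number was not measured.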

How the data were processed

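RNA from PC3 and DU145 control cells was sequenced as single reads. The authors worked in Galaxy, with Cutadapt for trimming, HISAT2 for alignment to hg38 and featureCounts for counting, and deposited raw counts for each Entrez identifier. Whether strand was used is not given in the sources used here, so overlapping genes cannot be separated. Both tables were joined by identifier (28395 genes, 97.7% matched to RefSeq of GRCh38.p14 for names and coordinates). The 6 control libraries were fitted with edgeR 4.0.16 in R 4.3.3 (filterByExpr, TMM factors, robust quasi-likelihood test, Benjamini-Hochberg adjustment). A gene was called when its adjusted p was below 0.05 and its log2 fold change exceeded 0.58 in size. An exact permutation test of 3 against 3 libraries cannot go below 0.1 and was not used. Depth was 13194485 to 17758666 counts per library. The scripts were tested on simulated data in which few genes differed, so that test does not cover differences as many as those found here.

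Named genes were those the study is about, the 12 largest differences in each direction, the highest genes read in 1 line only and, for each of 38 gene lists, called members with the largest differences and the highest means, with neighbours of unread runs, MUC1, EGR1 and further list members (such as RB1, MYC, EGFR, ESRP2, KRT19, ID2 relatives and VEGFA) chosen after their values were seen. The members and lists were chosen with earlier results of these data known. Alternatives were other scalings and filters, limma-voom (limma 3.58.1), DESeq2 1.42.0, glmTreat, the replicate number as a block, each library left out, a fit of all 11 libraries and removal of a GC and length trend. Results on some genes are not reported here.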

Additional observations from a re-analysis of the deposited data

Results flagged for a closer look

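The difference between the lines was compared between the control and the overexpression libraries by an interaction term over all 11 libraries (edgeR, Benjamini-Hochberg adjustment). The named genes numbered 170, and 51 had an adjusted p under 0.05 for the interaction. Among named genes with over 3 counts in each line, 8 had such an adjusted p and an interaction over 2 in size on the log2 scale. The limit of 2 was chosen after values of some of these genes were seen. The interaction is given as the difference in the overexpression libraries minus that in the controls. The share over all genes tested is not given for either count, so neither 51 nor 8 is read as many or few. DSP reversed, from a log2 fold change of -3.54 in the controls to 1.43 in the overexpression libraries (interaction 4.97, adjusted p = 2.83e-15). The sign was the same in both sets for the others of these 8 genes. The interaction was 5.32 for FST, whose DU145 level was near the floor of counting, 4.62 for IGFBP2, 2.16 for ALDH3A1 and 2.15 for CLDN7. It was -2.05 for CSF1, -2.04 for CXCL8 and -2.74 for ITGB8. The control and overexpression libraries of a line differ in the transgene and in the transduced population, which cannot be told apart here.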

How the results depend on the processing

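The count of 9205 called genes and both of its directions stayed within 1.5 times under every fit tried, including RLE, upper quartile and total count scaling, both filters, limma-voom, DESeq2 and glmTreat. With an absolute log2 fold change over 2, 3060 genes were called, 1609 higher in PC3 and 1451 in DU145. Leaving out a control library gave 9313 to 9433 calls, 4725 to 4832 higher in PC3 and 4572 to 4628 in DU145. Leaving out an overexpression library gave 9383 to 9811 calls there, 4852 to 5215 higher in PC3 and 4518 to 4618 in DU145, and where 1 DU145 library was left it was assumed to vary like the PC3 libraries. Genes read in PC3 only numbered 132 to 145 and in DU145 only 100 to 117 with a library left out. The 101 genes read in DU145 only became 59 with no count allowed in PC3 and 163 at a minimum of 5 CPM. With the GC and length trend removed the median log2 fold change was -0.86 for chromosome 9, -0.18 for chromosome 8, 0.41 for chromosome 20 and 0.0045 for chromosome 19, and GNE (0.041) and KRT19 (-0.19), neither of them called, changed sign. That setting covered only the 13882 tested genes with a known GC content and length, and kept the adjusted p of the main fit. It gave 8398 calls, 3978 higher in PC3 and 4420 in DU145, and IL6ST (-0.35) and ARIH1 (-0.33) lost their call. ARIH1 also lost it under glmTreat and without PC3 control replicate 3, and PKM under 8 alternatives, with log2 fold changes of -0.58 to -0.55. Same-numbered PC3 and DU145 libraries did not deviate together (correlations 0.031, 0.016 and 0.049), so the numbers were not taken as pairs, and the replicate block gave 9197 calls in the controls and 9439 in the overexpression libraries. Line and library batch cannot be told apart under any of these settings. A count of 0 over the 3 libraries of a line allows a level of up to 0.0616 CPM in PC3 and 0.0680 CPM in DU145.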
